A study of Homo sapiens with 12 samples.

Results

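The genes described here are 5 chemokine genes, CXCL1, CXCL2, CXCL3, CXCL8 and CCL2, together with the cytokine gene IL6, in HOS osteosarcoma (OSA) cells with raised or lowered CIN85. They are the rows of the gene count table whose Ensembl identifiers carry these 6 symbols in GENCODE, 6 of 25141 genes. HOS is an established human OSA cell line, and CIN85 (gene SH3KBP1) is an adaptor protein that links receptor signalling to endocytosis. RNA was counted in 4 groups of 3 libraries each. upCIN85 cells carried the pRc/CMV2-Rukl plasmid, which drives full-length CIN85 from a viral promoter, and Mock cells carried the empty vector. Both were used as geneticin-resistant pools rather than single clones. siCIN85 cells received a mix of CIN85-targeting siRNAs, and siNeg cells received a non-targeting siRNA. None of the libraries came from untreated parental HOS cells, so each experiment has only its own transfected control. The labels do not say that replicates came from separate cultures, so P-values measure the spread between these libraries, which may be technical.

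CXCL1, CXCL2, CXCL3 and CXCL8 (interleukin-8) are secreted chemokines of the ELR class, which attract neutrophils through the receptors CXCR1 and CXCR2. CCL2 attracts monocytes through CCR2, and IL6 signals through its receptor IL6R and the shared subunit IL6ST to the kinase JAK and the factor STAT3. All are classical inflammatory genes that NF-κB switches on within hours of a stimulus, often together with C/EBP and AP-1 factors, and their short-lived mRNAs are removed by decay factors such as ZFP36 and ZC3H12A. In OSA, tumor cells can make these ligands themselves.

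The promoters are shown because the members moved together and because the 3 closest paralogs can be seen to share letters there. RefSeq promoter windows of 250 bases before to 50 bases after the first transcribed base (GRCh38.p14) were found for 5 of the 6 genes; CCL2 is named only. The 170 bases before the start are printed 5′ to 3′ on the strand of each gene, for CXCL1 (chr4:73869223-73869392, plus strand), CXCL3 (chr4:74038690-74038859, minus strand), CXCL2 (chr4:74099196-74099365, minus strand), CXCL8 (chr4:73740399-73740568, plus strand) and IL6 (chr7:22727030-22727199, plus strand). Capitals mark the match to the NF-κB consensus and, in CXCL8, the run of letters that it shares with the other CXCL promoters.
CXCL1: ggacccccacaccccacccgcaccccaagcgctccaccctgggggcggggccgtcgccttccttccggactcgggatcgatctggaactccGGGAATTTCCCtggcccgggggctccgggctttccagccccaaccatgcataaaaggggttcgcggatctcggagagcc
CXCL3: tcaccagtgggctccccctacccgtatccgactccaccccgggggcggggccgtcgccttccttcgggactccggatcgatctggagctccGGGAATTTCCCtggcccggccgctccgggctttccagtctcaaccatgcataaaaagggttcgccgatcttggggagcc
CXCL2: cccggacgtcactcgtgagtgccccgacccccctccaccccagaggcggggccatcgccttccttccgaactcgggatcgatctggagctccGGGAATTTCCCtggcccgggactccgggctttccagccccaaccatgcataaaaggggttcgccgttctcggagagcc
CXCL8: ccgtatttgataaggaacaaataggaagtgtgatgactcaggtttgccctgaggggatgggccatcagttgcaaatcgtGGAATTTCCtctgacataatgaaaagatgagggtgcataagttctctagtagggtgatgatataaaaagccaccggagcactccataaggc
IL6: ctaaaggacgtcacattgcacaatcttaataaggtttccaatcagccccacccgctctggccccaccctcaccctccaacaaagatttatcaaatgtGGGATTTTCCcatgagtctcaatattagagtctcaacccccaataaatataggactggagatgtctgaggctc

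An NF-κB consensus match started at -79 in CXCL1 and CXCL3, at -78 in CXCL2 and at -73 in IL6, counted from the first transcribed base. On either strand the consensus matched 4 of the 5 member promoters and 5.72% of 27305 RefSeq promoters of the same length. The CXCL8 window held no match, which says only that these letters are not in this window. The longest run common to the 4 CXCL promoters was GGAATTTCC, a search made after the sequences were seen. It lies inside the NF-κB matches of CXCL1, CXCL2 and CXCL3, starts at -91 in CXCL8, and was found in 0.472% of all promoters on either strand. The AP-1 letters TGANTCA matched CXCL8 alone at -137, against 7.76% of all promoters, and the TATA letters TATAAA matched CXCL8 at -31, against 11.95%. The C/EBP letters TTNNGNAA matched CXCL2 and IL6, against 37.2%, and the CRE letters TGACGTCA matched none of the 5, against 1.98%. In the 250 bases before the start, CXCL1 and CXCL3 were identical at 81.4% of aligned positions, CXCL2 and CXCL3 at 73.4%, and CXCL1 and CXCL2 at 70.1%. All pairs with CXCL8 or IL6 lay between 43.9% and 51.7%. A match is a description of letters and was not tested as a binding site.

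Differences were tested with the quasi-likelihood test of edgeR across 12542 genes. They are given as log2 fold change (log2FC) with its standard error (SE), and a gene was called where the P-value adjusted over all these genes was below 0.05. Total counts per library ranged from 5334731 to 6049458 in Mock and upCIN85 and from 3540641 to 4174860 in siNeg and siCIN85. The targeted gene SH3KBP1 had 16, 31 and 37 counts in siCIN85 and 342, 357 and 317 in siNeg (log2FC -3.51, adjusted P-value 5.09e-08). It did not pass the test between upCIN85, with 406, 551 and 487 counts, and Mock, with 407, 488 and 416 counts (log2FC 0.070, adjusted P-value 0.887). The kit counts the 3′ end of transcripts, and the sources used here do not say whether the plasmid transcript carries that end, so these counts are no check of the overexpression. The OSA and mesenchymal markers SPARC, COL1A1, VIM and RUNX2 were present in every library, whereas IBSP reached at most 1 count and ALPL at most 23. BGLAP and SP7, from the same list, had no counts. The epithelial genes EPCAM, CDH1, KRT8 and KRT18 were also present in every library, with 85 or more counts of EPCAM and 66 or more of CDH1. The epithelial genes KRT5 and KRT14 had no counts, and KRT19 reached at most 4. Of 5 endothelial markers, CDH5 had 2 to 36 counts and the others at most 6. The leukocyte markers PTPRC, CD3E, LYZ, CSF1R and MPO never exceeded 1 count. Of the same 14-marker list, CD14 had 4 to 9 counts in every library, CD68 reached 15, ITGAM 10 and LAPTM5 4. In bulk RNA, fewer expressing cells and less RNA per cell cannot be told apart.

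All 6 genes had the same order of mean levels, lowest in upCIN85, then Mock, then siCIN85, and highest in siNeg. Neighbouring groups did not overlap between upCIN85 and Mock for all members but CXCL3, nor between Mock and siCIN85 for all but CCL2. siCIN85 and siNeg overlapped for all members but CXCL2. Of all genes tested, 11.0% had upCIN85 libraries wholly below Mock and 10.2% had siCIN85 libraries wholly below siNeg. That share was not computed for Mock and siCIN85, which come from different experiments. In TMM-normalized counts scaled to library size (CPM), the 6 genes summed to 7.69 to 8.5 in upCIN85, 39.7 to 64.9 CPM in Mock, 176 to 315 CPM in siCIN85 and 273 to 352 CPM in siNeg. In Mock, replicate 1 had the highest level of 5 members and replicate 2 the lowest of 4. In siCIN85, replicate 2 was highest for 4 members and replicate 1 lowest for 4.

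**Figure D1:**
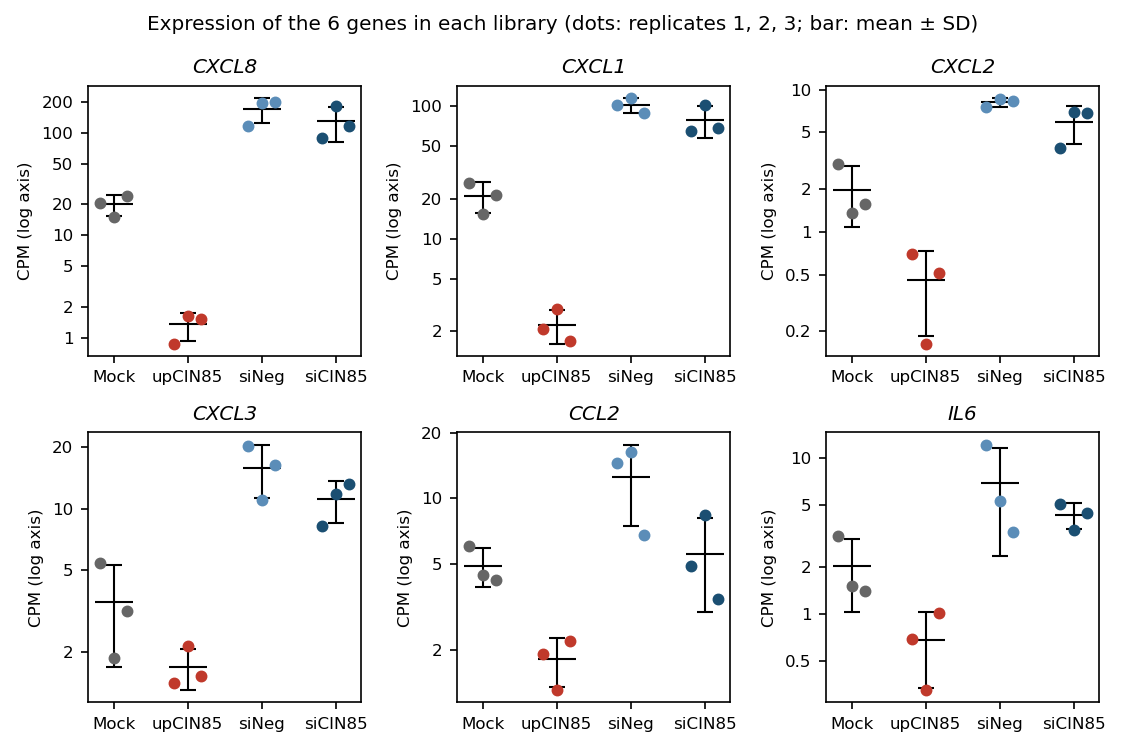
CPM of the 6 genes on a log axis, 1 panel per gene with its own scale; dots are the 3 libraries of each group in the order of replicates 1, 2 and 3, and the black bar is the mean with SD. Every panel has its lowest mean in upCIN85 and its highest in siNeg.

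CXCL8, a potent neutrophil attractant, and CXCL1 fell in upCIN85 cells, and both passed the adjusted test against Mock. The other 4 members were also lower in upCIN85, by log2FC of -1.02 to -2.06, without passing it. CXCL8 stood at 20.7, 15.1 and 24.2 CPM in the 3 Mock libraries and at 0.874, 1.63 and 1.53 CPM in upCIN85. The highest upCIN85 library was thus far below the lowest Mock library, on 5, 10 and 9 reads. The log2FC was -3.86 (SE 0.41, 95% interval -4.72 to -3.00), a 14.5-fold lower level, with an edgeR adjusted P-value of 0.000135.

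CXCL1, a close relative of CXCL2 and CXCL3, stood at 26.5, 15.4 and 21.4 CPM in Mock and at 2.10, 2.94 and 1.70 CPM in upCIN85. Its groups did not overlap either, and replicate 2 was the lowest Mock library for both genes. The log2FC of CXCL1 was -3.21 (SE 0.29, 95% interval -3.82 to -2.60), 9.24-fold lower, with an edgeR adjusted P-value of 1.85e-05. By P-value CXCL1 and CXCL8 ranked 2 and 3 among the 12542 genes tested.

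CXCL2 had 16, 8 and 9 reads in Mock and 4, 1 and 3 in upCIN85 (log2FC -2.06, SE 0.52, adjusted P-value 0.0612). CXCL3 had 29, 11 and 18 reads in Mock and 8, 13 and 9 in upCIN85 (log2FC -1.02, SE 0.42, adjusted P-value 0.257). CXCL3 was the only member whose groups overlapped, through Mock replicate 2 and upCIN85 replicate 2. The monocyte attractant CCL2 had 32, 26 and 24 reads in Mock and 11, 8 and 13 in upCIN85 (log2FC -1.42, SE 0.41, adjusted P-value 0.0896). IL6 had 17, 9 and 8 reads in Mock and 4, 2 and 6 in upCIN85 (log2FC -1.54, SE 0.61, adjusted P-value 0.242). CCL2 passed in a fit of the 6 libraries of the comparison (edgeR adjusted P-value 0.0360), and CCL2 and CXCL2 passed with no filter on low counts (edgeR adjusted P-values 0.00298 and 0.00660). Without that filter the edgeR adjusted P-values of CXCL1 and CXCL8 fell to 8.42e-41 and 5.56e-52, while log2FC hardly changed. The passes without the filter thus came with smaller P-values, not with larger differences. Both sets of libraries were separate for CCL2 and for IL6, on counts of 13 or fewer in upCIN85.

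In total, 2 of 6 members were called lower and 0 higher in upCIN85, where 0.789% of all genes tested were called lower and 0.439% higher. All 6 were lower at an unadjusted P below 0.05, as were 7.85% of all genes tested. Libraries of upCIN85 lay wholly below Mock for 5 of 6 members, against 11.0% of all genes tested. The median log2FC of the members was -1.80, against 0.0072 over all genes. The members were chosen with earlier results of these data known, so such shares, here and below, do not test the set. The calls of CXCL1 and CXCL8 held in every alternative in which they were tested.

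The proportions among the members also differed. CXCL1 and CXCL8 made up 72.8% to 81.5% of the reads of the 6 genes in Mock, and 38.0% to 53.8% in upCIN85, without overlap. CXCL3 had 0.121 to 0.206 reads for each CXCL1 read in Mock and 0.667 to 0.900 in upCIN85. The ratio of CXCL8 to CXCL1 reads was 0.780 to 1.13 in Mock and 0.417 to 0.900 in upCIN85, so this ratio overlapped. These ratios rest on 44 to 52 reads per upCIN85 library and carry no test.

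When CIN85 was silenced, no member passed the adjusted test against siNeg. All 6 were lower in siCIN85, with log2FC between -1.19 and -0.38. CXCL8 stood at 116, 196 and 198 CPM in siNeg and at 89.3, 181 and 116 CPM in siCIN85. In each of the 3 same-numbered pairs siCIN85 was lower, although the groups overlapped, since siCIN85 replicate 2 exceeded siNeg replicate 1 (log2FC -0.40, 95% interval -0.88 to 0.078, edgeR adjusted P-value 0.405). CXCL1 stood at 102, 115 and 89.1 CPM in siNeg and at 64.6, 103 and 68.4 CPM in siCIN85. CXCL1 was likewise lower in siCIN85 in 3 of 3 pairs, and siCIN85 replicate 2 lay within the siNeg range (log2FC -0.38, 95% interval -0.78 to 0.019, edgeR adjusted P-value 0.341). The labels do not pair same-numbered libraries, for these or the other members. The share of all genes tested that were lower in every such pair was not computed.

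CCL2 had the largest difference of the members, with 58, 67 and 26 reads in siNeg and 20, 29 and 13 in siCIN85. Within each replicate number the siCIN85 library was the lower of the pair, while siCIN85 replicate 2 overlapped siNeg replicate 3. The log2FC was -1.19 (SE 0.35, 95% interval -1.92 to -0.46), with an edgeR adjusted P-value of 0.104. The deviations of same-numbered siRNA libraries correlated, and these libraries were treated as paired in a further fit. This fit, which blocked on the number in the siRNA experiment, called CCL2 (log2FC -1.18, edgeR adjusted P-value 0.0166). With a block in both experiments the adjusted P-value of CCL2 was 0.00466, and CXCL8 passed as well (log2FC -0.42, edgeR adjusted P-value 0.0350). CCL2 also passed without siNeg replicate 3 (log2FC -1.49, edgeR adjusted P-value 0.0274) and without siCIN85 replicate 2 (log2FC -1.60, edgeR adjusted P-value 0.0333).

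CXCL2 had 30, 35 and 32 reads in siNeg and 16, 24 and 26 in siCIN85 (log2FC -0.47, edgeR adjusted P-value 0.494). It was lower in siCIN85 in 3 of 3 pairs and the only member whose siCIN85 libraries all lay below siNeg in CPM. CXCL3 had 81, 45 and 63 reads in siNeg and 34, 41 and 50 in siCIN85 (log2FC -0.52, edgeR adjusted P-value 0.406). IL6 varied widely within siNeg, with 49, 22 and 13 reads, against 21, 12 and 17 in siCIN85 (log2FC -0.68, edgeR adjusted P-value 0.457). CXCL3 and IL6 were lower in siCIN85 in 2 of 3 pairs each, and for both the high siNeg value came from replicate 1. Without siNeg replicate 1 the log2FC was -0.31 for CXCL3 and -0.010 for IL6 (edgeR adjusted P-values 0.732 and 0.993). The lower level of IL6 thus rested on that library.

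By edgeR, 0 of 6 members were called, where 0.454% of all genes tested were called lower and 0.59% higher in siCIN85. DESeq2 on all 12 libraries and on the 6 libraries of the comparison also called 0. CCL2 alone had an unadjusted P below 0.05, where 8.15% of all genes tested were lower at that level. Libraries did not overlap for 1 of 6 members, against 10.2% of all genes tested. The median log2FC was -0.50, against -0.0052 over all genes. Summed leukocyte markers were 4.34 to 8.74 CPM in siCIN85 and 1.95 to 3.13 CPM in siNeg, with 8 and 5 of 14 markers detected and PTPRC at 1 count or less, and their part in these values was not tested.

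The effects of the plasmid and of the siRNA were then compared with each other, as the change in upCIN85 minus the change in siCIN85. For CXCL8 the difference was -3.46 (SE 0.48, edgeR adjusted P-value 0.00287) and for CXCL1 it was -2.83 (SE 0.35, edgeR adjusted P-value 0.00130). These 2 of 6 members passed, against 0.686% of all genes tested that were lower by this measure. The other 4 did not, with differences of -1.58 for CXCL2, -0.86 for IL6, -0.50 for CXCL3 and -0.22 for CCL2. For CCL2 the 95% interval of the difference ran from -1.33 to 0.89, so the size of this difference is poorly known.

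**Figure D2:**
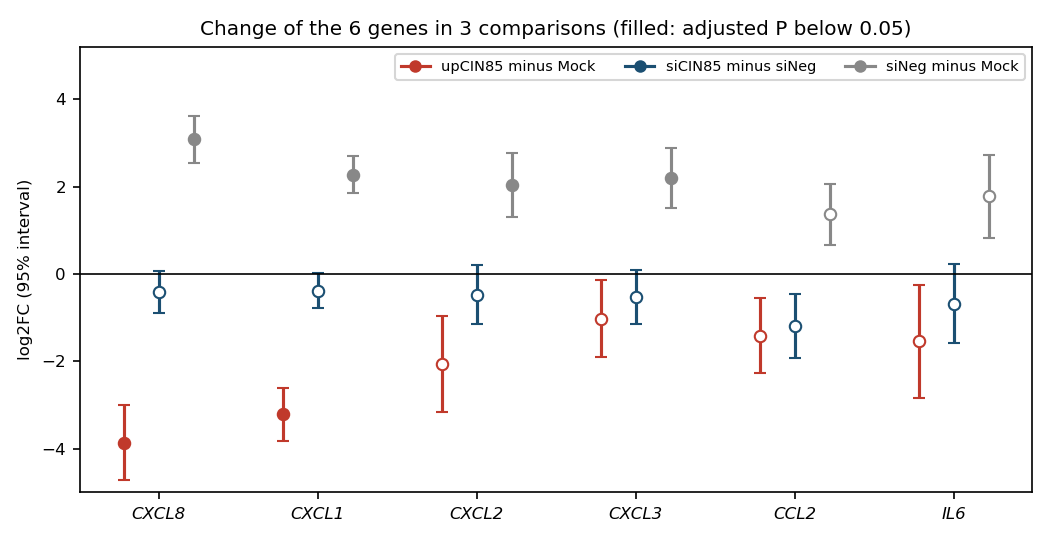
log2FC of the 6 genes with 95% intervals in upCIN85 minus Mock (red), siCIN85 minus siNeg (blue) and siNeg minus Mock (grey); filled circles passed an edgeR adjusted P-value of 0.05. The red values spread from -1.02 for CXCL3 to -3.86 for CXCL8, the blue values lie between -1.19 and -0.38, and the grey values all lie above 1.

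The members also differed between the 2 control groups. siNeg cells received an siRNA and Mock cells a plasmid with drug selection, and possible differences in reagent or sequencing run are not stated in the sources used here, so these cannot be told apart from the group. CXCL8 was 15.1 to 24.2 CPM in Mock and 116 to 198 CPM in siNeg, a log2FC of 3.09 (SE 0.26, edgeR adjusted P-value 1.10e-05) that ranked 1 among all genes tested. CXCL1 ranked 2, at 21.1 ± 5.54 CPM in Mock and 102 ± 12.9 CPM in siNeg (mean ± SD, n = 3; log2FC 2.27, SE 0.20, edgeR adjusted P-value 1.68e-05). CXCL3 (log2FC 2.19, edgeR adjusted P-value 0.00707) and CXCL2 (log2FC 2.04, edgeR adjusted P-value 0.0131) were higher as well.

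CCL2 was 4.88 ± 0.992 CPM in Mock and 12.5 ± 5.09 CPM in siNeg, and IL6 was 2.04 ± 1.00 CPM in Mock and 7.0 ± 4.65 CPM in siNeg. Neither passed (log2FC 1.37 and 1.78, edgeR adjusted P-values 0.0789 and 0.0866), and both passed without siNeg replicate 3, the lowest siNeg library for both (edgeR adjusted P-values 0.0173 and 0.0252). CCL2 also passed with DESeq2 on all 12 libraries (adjusted P-value 0.0317), which gave no adjusted P-value for CXCL2 or IL6. In the opposite sense, CXCL2 was lost without Mock replicate 2, Mock replicate 3 or siNeg replicate 2 (edgeR adjusted P-values 0.108, 0.0900 and 0.0804), and CXCL3 without Mock replicate 3 (0.0509). In all, 4 of 6 members were called higher and 0 lower, where 0.415% of all genes tested were called higher and 0.112% lower. All 6 had siNeg libraries wholly above Mock, against 9.48% of all genes tested, and the median log2FC was 2.11 against 0.0027. The ratio of CXCL8 to CXCL1 reads was 1.14 to 2.23 in siNeg and 1.38 to 1.76 in siCIN85, above the 0.780 to 1.13 of Mock.

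The CXCL members lie in 1 chemokine cluster on chromosome 4 (GENCODE 29, GRCh38), with CXCL8 at chr4:73740506-73743716 and CXCL1 at chr4:73869393-73871242 on the plus strand. CXCL3 at chr4:74036589-74038807 and CXCL2 at chr4:74097035-74099293 are on the minus strand. CCL2 is at chr17:34255218-34257203 and IL6 at chr7:22725884-22732002, both on the plus strand; 2 genes on the opposite strand, STEAP1B and AC073072.1, overlap IL6. The strand setting of the counting is not given in the sources used here, so reads of IL6 and of these genes could be mixed. Measured from the CXCL8 start, CXCL1 starts at 129 kb, CXCL3 at 298 kb and CXCL2 at 359 kb. CXCL1 and CXCL3, whose promoter windows were the most alike, had log2FC of -3.21 and -1.02 in upCIN85, with 95% intervals of -3.82 to -2.60 and -1.90 to -0.14. Their log2FC were -0.38 and -0.52 in siCIN85 against siNeg, and 2.27 and 2.19 in siNeg against Mock. A link between promoter letters and these changes was not tested.

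Paralogous transcripts can share reads. Of the 75-base windows of its annotated transcripts, CXCL2 shared 111 of 1571 with another chemokine gene, CXCL3 shared 108 of 2363 and CXCL1 shared 3 of 1222. In the last 500 bases, nearer the 3′ end that the kit counts, CXCL2 shared 111 of 1191, CXCL3 60 of 1632 and CXCL1 3 of 852. CXCL8, CCL2 and IL6 shared none. The counts of CXCL2 and CXCL3 are therefore less certain than those of the other members.

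Within 500 kb of the CXCL members, 13 further genes were in the table and 4 passed the filter on low counts, and none of these was called in any of the 3 comparisons. The neighbours ANKRD17, MTHFD2L and AREG are not chemokines. AREG had 4, 9 and 4 reads in siNeg and 23, 11 and 13 in siCIN85, opposite in direction to the members (log2FC 1.51, edgeR adjusted P-value 0.0993). CXCL5, another ELR chemokine, had 5, 1 and 3 reads in Mock and 0 in every upCIN85 library, with an edgeR adjusted P-value of 0.0979. With upCIN85 set to a floor of 3 counts over the group and the Mock reads taken as exact, CXCL5 was 3.13-fold lower. In contrast to the members, CXCL5 had more reads in siCIN85 (15, 14 and 14) than in siNeg (13, 7 and 4), with an edgeR adjusted P-value of 0.341. CXCL6 had 1 read in all libraries together and the platelet chemokine PF4 at most 5 in any library. Beside CCL2, the related monocyte attractant CCL7 had 11, 2 and 4 reads in Mock and 1, 2 and 0 in upCIN85. In the siRNA experiment CCL7 had 28, 18 and 5 reads with siNeg and 6, 11 and 8 with siCIN85, and it was not called. Of the IL6 neighbours, 7 of 15 were tested and 0 were called.

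**Figure D3:**
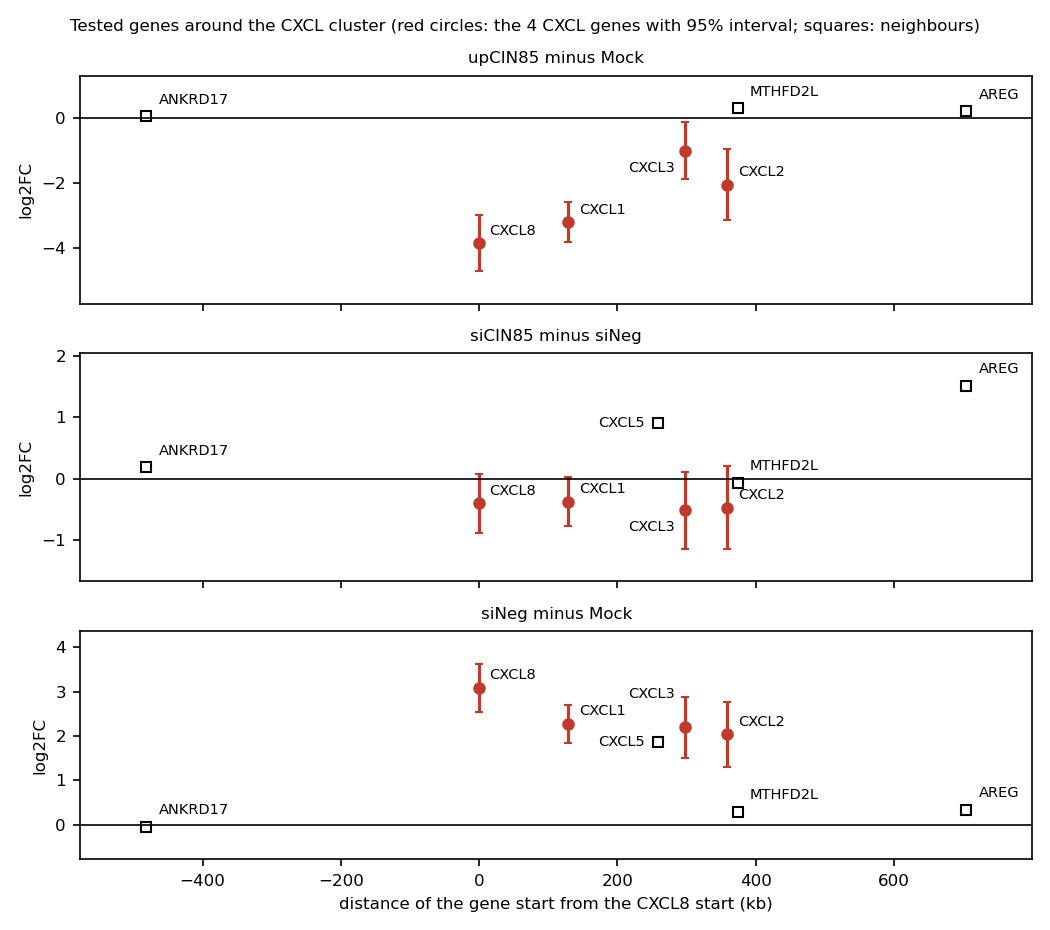
log2FC of the tested genes around the CXCL cluster against the distance of their start from the CXCL8 start in kb, 1 panel per comparison; red circles are the 4 CXCL members with 95% intervals, open squares are neighbours. CXCL5 is not drawn for upCIN85 minus Mock because it had 0 reads in upCIN85. ANKRD17, MTHFD2L and AREG stay near 0 in the upper and lower panels, while AREG lies at 1.51 in the middle panel.

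Of 23 chemokine receptors looked for, 10 were in the gene count table. CXCR1, CXCR2 and CCR2 were not among them, and every gene in that table had a count in some library. IL6R, the ligand-binding receptor of IL6, had a mean of 40.8 CPM in Mock against 30.7 CPM in upCIN85, and of 43.3 CPM in siNeg against 44.2 CPM in siCIN85. Its partner IL6ST had 93.8, 80.7, 109 and 110.3 CPM in the same order of groups. Neither passed in any of the 3 comparisons. Of the IL6 family ligands, receptors and transducers, 16 were tested and 0 were called in any comparison, with medians of -0.071, 0.024 and 0.018 for upCIN85 minus Mock, siCIN85 minus siNeg and siNeg minus Mock. Of the chemokine receptors, 2 were tested and 0 were called, with medians of -0.55, 0.71 and -0.065 in the same order of comparisons.

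Among 5 other chemokines tested, CCL20, which attracts cells through CCR6, was called in siNeg against Mock (log2FC 3.24, edgeR adjusted P-value 0.0301). The medians of this list were -0.21, -0.35 and 0.72 in the order above, and no other member of it was called. CCL20 had 4, 1 and 0 reads in Mock and 0 in all upCIN85 libraries, against 14, 13 and 9 in siNeg and 10, 13 and 15 in siCIN85. Among 7 other inflammatory cytokines tested, IL32 and the TNF family member LTB fell in upCIN85 (log2FC -2.15 and -3.00, edgeR adjusted P-values 0.00266 and 0.00632). IL32 was also higher in siNeg than in Mock (log2FC 1.39, edgeR adjusted P-value 0.0131). LTB had 35, 39 and 45 reads in siNeg and 64, 50 and 115 in siCIN85, which did not pass (log2FC 1.01, edgeR adjusted P-value 0.104). The medians of the cytokine list were -0.44, -0.31 and 0.44.

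Of 26 transcription factors and inhibitors tested, 3 fell in upCIN85 and 0 rose, with a median of -0.087. These were NFKBIA, NFKBIZ and the NF-κB subunit RELB. NFKBIA encodes an inhibitor of NF-κB and NFKBIZ a related regulator, and both are NF-κB targets. NFKBIA had means of 198 CPM in Mock and 101.5 CPM in upCIN85 (log2FC -0.97, edgeR adjusted P-value 0.000825). The log2FC was -1.19 for NFKBIZ (edgeR adjusted P-value 0.00174) and -0.78 for RELB (edgeR adjusted P-value 0.0452). In siNeg against Mock 5 of the 26 were higher and 0 lower, with a median of 0.30: NFKBIA (log2FC 0.62), NFKBIZ (0.93), RELB (0.90), the NF-κB feedback inhibitor TNFAIP3 (1.5) and the AP-1 subunit JUNB (0.81). In siCIN85 against siNeg 0 of the 26 were called, with a median of 0.0097.

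Of 20 upstream receptors and adaptors, none was called in upCIN85 or between the controls, and the TNF receptor gene TNFRSF1B rose in siCIN85 (log2FC 1.52, edgeR adjusted P-value 0.0264), with medians of -0.058, 0.10 and 0.082. Of 16 regulators of mRNA decay, ZC3H12A, a nuclease that cleaves IL6 mRNA, was higher in siNeg than in Mock (log2FC 1.08, edgeR adjusted P-value 0.0301), and none was called in the other comparisons, with medians of 0.053, -0.025 and -0.044. Comparisons with Mock share the Mock libraries, so values that are low against Mock in upCIN85 and high against Mock in siNeg are not separate observations.

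**Figure D4:**
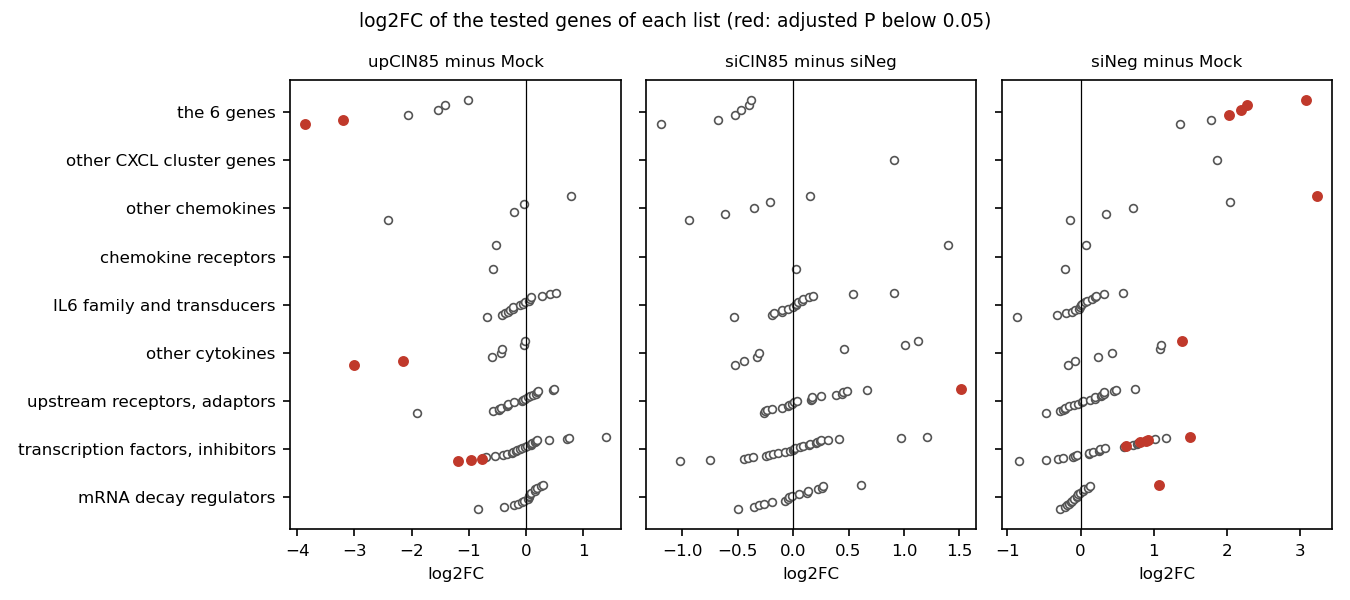
log2FC of the tested genes of each list in 3 comparisons, 1 dot per gene and 1 row per list, with the 6 genes at the top; red dots passed an edgeR adjusted P-value of 0.05. The scales of the panels differ, and CXCL5 and CCL20 are not drawn in the first panel because they had 0 reads in upCIN85. Most genes of the receptor, IL6 family and decay rows lie near 0, while the members lie to one side of 0 in each panel.

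The genes most like the members were found by their log2 CPM, centred on the mean over the 12 libraries, and compared with the mean centred profile of the 6 members by root mean square (RMS) difference. CXCL2 had the smallest RMS difference of the members (0.32) and CXCL8 the largest (1.19), since it fell and rose most. Among all genes tested, the members ranked 1 (CXCL2), 5 (CXCL3), 15 (IL6), 16 (CXCL1), 29 (CCL2) and 267 (CXCL8). The mean profile includes their own values. The 10 nearest other genes were IL32 (0.36), CTSS (0.48), C15orf48 (0.50), CCL20 (0.55), TNFRSF9 (0.56), BIRC3 (0.56), TNIP3 (0.56), ICAM1 (0.56), MIR3142HG (0.57) and LCP1 (0.57). ICAM1 is an adhesion receptor for leukocytes, BIRC3 an inhibitor of apoptosis, CTSS a lysosomal protease and TNFRSF9 a TNF receptor family member. This likeness describes 12 libraries of 4 groups and carries no test.

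**Figure D5:**
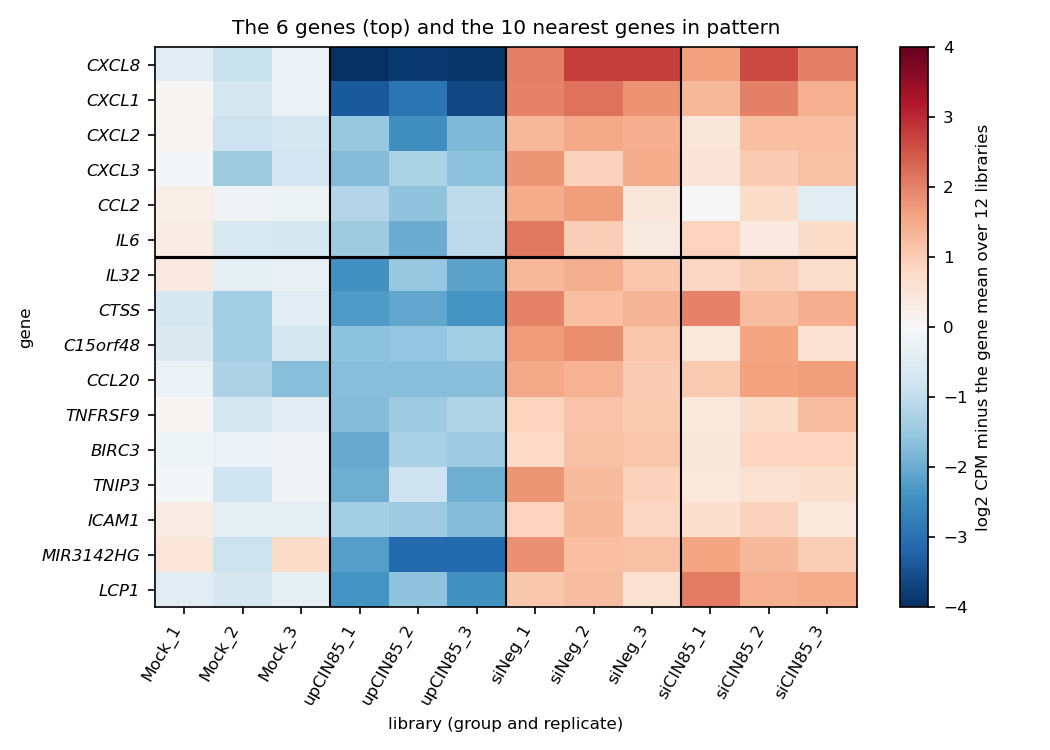
Log2 CPM minus the mean of each gene over 12 libraries, in colour from blue (low) to red (high), for the 6 genes above the line and the 10 nearest genes in pattern below it; columns are libraries by group and replicate. The 3 upCIN85 columns are blue and the siNeg columns red in all 16 rows, and CCL2 is near its mean or below it in siCIN85 replicates 1 and 3.

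Of these 10 genes, BIRC3 fell from 38.2 ± 1.59 CPM in Mock to 14.5 ± 3.72 CPM in upCIN85 (mean ± SD, n = 3) and stood at 89.1 ± 12.7 CPM with the control siRNA and 72.7 ± 11.1 CPM with the CIN85 siRNAs. ICAM1 fell from 13.5 ± 4.27 to 4.86 ± 0.695 CPM and stood at 30.2 ± 6.23 and 23.8 ± 4.41 CPM with the siRNAs. Both had the order of groups seen for the 6 members, which follows in part from their selection by pattern in these same libraries. CTSS, LCP1 and CCL20 departed from it, with means of 37.2, 24.1 and 3.01 CPM in siNeg and 38.2, 39.2 and 3.38 CPM in siCIN85. MIR3142HG, a long noncoding host gene of a microRNA, had 24, 9 and 31 reads in Mock and 2, 0 and 0 in upCIN85, and TNIP3 had 6, 3 and 6 against 0, 3 and 0.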

How the data were processed

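Total RNA of 12 HOS libraries (4 groups of 3) was measured with a 3′ end kit with molecular identifiers and 75-bp single-end reads. The authors deposited raw counts per gene from featureCounts, without normalization. The submitters' processing notes name cutadapt 4.3, STAR 2.7.3a, Picard 2.25.6, Subread 2.0 and GRCh38; whether identifiers were collapsed is not given in the sources used here. Names and positions came from GENCODE 29, in which 95 of 25141 identifiers had no match. Groups and replicate numbers followed the labels.

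Genes were filtered with filterByExpr of edgeR 4.0.16 in R 4.3.3 (minimum count 10, minimum total 15; 12542 genes kept, all 6 members among them) and normalized by TMM. A quasi-likelihood fit with 1 mean per group used all 12 libraries (8 residual degrees of freedom). Two-sided P-values were Benjamini-Hochberg adjusted over all genes tested and called at 0.05. Standard errors are the absolute log2FC divided by the root of the F statistic. CPM values use TMM library sizes. The fit was tested on simulated data. Alternatives were DESeq2 1.42.0, other filters, scaling, depth, samples, replicate blocks and left-out libraries. Replicate pairs of a group differed by more than sampling noise (chi-square per degree of freedom 4.93 to 10.2). The deviations of same-numbered siNeg and siCIN85 libraries correlated at 0.353, 0.269 and 0.446, so these were taken as paired. This pairing comes from the data, not the labels. It is not established, because such correlations were not computed for libraries with different numbers.

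The members and lists were chosen with earlier results of these data known. Genes were named if they were members, their receptors or CXCL cluster genes, if they passed the test in a list, or if they were among the 10 nearest in pattern; the neighbours AREG, ANKRD17, MTHFD2L and CCL7, the gene LTB in siCIN85 and the values of markers were named after their values were seen. Protein sequences were not used here.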

Additional observations from a re-analysis of the deposited data

How the results depend on the processing

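Of the log2FC of the 6 members in the 4 comparisons, 320 values under the alternatives kept direction and side of the threshold, 18 newly passed, 4 no longer passed and 2 changed sign. With each library left out, the difference of effects for CCL2 (-0.22) ran from -0.46 to 0.19, and its sign changed to 0.083 without siNeg replicate 3 and to 0.19 without siCIN85 replicate 2. Members called lower in upCIN85 numbered 2, but 4 with no filter on low counts, 4 with the replicate block in both experiments (CXCL2 and CCL2 added), 3 in the fit of 6 libraries (CCL2 added, 4 members tested) and 1 with at least 10 counts in every library, where only 1 member could be tested. In siCIN85 the count was 0, but 1 with no filter, 1 with a replicate block for the siRNA libraries only (CCL2; no other call of that comparison changed), 2 with the block in both experiments, and 0 to 1 with each library left out. Between siNeg and Mock it was 4, but 1 with at least 10 counts in every library, 2 to 6 with each library left out, 6 with no filter, 6 with the replicate block across the 4 groups, and 3 with DESeq2 on 6 libraries (3 tested). Calls added with no filter came with smaller P-values at nearly unchanged log2FC. For the difference of effects the count was 2, but 1 with at least 10 counts in every library. RLE scaling, DESeq2 on 12 libraries, the fold threshold and thinning to 3540641 counts (chosen after seeing the data) left these counts as they were, though DESeq2 on 12 libraries called CCL2 in place of CXCL2, which it did not test, between siNeg and Mock. Replicate numbers of upCIN85 and Mock correlated at 0.326, 0.227 and 0.0989, and those of siNeg and Mock at 0.0751, 0.180 and -0.0600. Such correlations were not computed for libraries with different numbers, so whether these libraries share more than a number is not known. Low counts in upCIN85 (1 to 18 per library) limit all 6 members, CXCL8 with 5 to 10 included.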
